A study of Homo sapiens with 14 samples.

Results

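The genes described here encode the kinetochore, the spindle assembly checkpoint and the chromosomal passenger complex. Members were found by matching 44 gene symbols to the symbols of the count tables, and 43 were found in each table, among 17810 genes measured in the OmoMYC experiment and 19143 in the parental experiment. CENPU was not found under that name, although its Ensembl identifier (ENSG00000151725.7) is listed as MLF1IP, and it is not counted among the members. RNA-seq was analysed from CHP-134, an established MYCN-amplified neuroblastoma cell line, in 14 libraries. In the first experiment, lines carrying doxycycline-inducible EGFP or doxycycline-inducible OmoMYC were both given 1 µg/ml doxycycline for 3 days (3 libraries each). OmoMYC is a MYC-derived inhibitor with an altered leucine zipper, which occupies MAX and E-box sites in place of MYC or N-MYC. The inducible genes were delivered by lentivirus, cells were selected with G418, and EGFP and OmoMYC are therefore separate engineered lines, so the line and the induced protein cannot be told apart. In the second experiment, parental CHP-134 cells were given 500 nM dTAG47 or its DMSO vehicle for 18 h (4 libraries each). dTAG47 is a degrader of proteins that carry an FKBP12(F36V) tag, and parental cells carry no such protein, so this comparison serves the study as a control for the compound.

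The kinetochore is the protein assembly that joins each chromosome to spindle microtubules. It is built on nucleosomes holding the histone variant CENP-A, to which a constitutive centromere network binds throughout the cell cycle, and on which the microtubule-binding outer kinetochore assembles for mitosis. Unattached kinetochores recruit the spindle checkpoint, which delays anaphase, while the chromosomal passenger complex, with the kinase Aurora B, releases faulty attachments. Transcripts of many of these genes are known to be highest in G2 and mitosis, through promoter elements called the CHR and the CCAAT box.

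Of the 44 names, 35 had an entry in a RefSeq table of promoter windows, which run 250 bases before to 50 bases after the gene start on GRCh38.p14. A CHR, searched as TTTGAA or TTCGAA on both strands, was present in 20 of the 35 windows (57.1%) and in 16.6% of all 27305 windows. A CCAAT box, searched as CCAAT on both strands, was present in 22 (62.9%) and in 35.7% of all windows. Both were present in 14 (40%), against 6.58% of all windows. An E2F motif, searched as TTCCCGC, as its variant TTCGCGC, as another variant TTGCCGC and also as TTGGCGC, was present in 13 (37.1%), against 13.1% of all windows. The E-box CACGTG, the preferred site of MYC proteins, was present in 3 members (8.57%) and in 7.43% of all windows. The windows below are shown with CHR and CCAAT letters in capitals. The first 6 belong to members with both motifs, and of these each is the one with the largest called fall of its functional group after OmoMYC; no SKA gene held both. CHR matches start 18 bases before the gene start in CENPA, 3 before in SPC25, which has another far upstream, and 23 before in CDCA8, and after the start by 17 bases in CENPW, 40 in CENPF and 24 in MAD2L1. In CDCA8 the CHR and 1 CCAAT box overlap by 1 base.
CENPA promoter, chr2:26785806-26786105 (plus strand): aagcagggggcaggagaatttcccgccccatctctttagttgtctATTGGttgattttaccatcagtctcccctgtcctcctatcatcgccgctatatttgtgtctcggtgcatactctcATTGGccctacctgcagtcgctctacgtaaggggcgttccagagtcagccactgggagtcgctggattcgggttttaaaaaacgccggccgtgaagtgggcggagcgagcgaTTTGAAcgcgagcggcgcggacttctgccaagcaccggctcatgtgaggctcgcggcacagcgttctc
CENPW promoter, chr6:126339865-126340164 (plus strand): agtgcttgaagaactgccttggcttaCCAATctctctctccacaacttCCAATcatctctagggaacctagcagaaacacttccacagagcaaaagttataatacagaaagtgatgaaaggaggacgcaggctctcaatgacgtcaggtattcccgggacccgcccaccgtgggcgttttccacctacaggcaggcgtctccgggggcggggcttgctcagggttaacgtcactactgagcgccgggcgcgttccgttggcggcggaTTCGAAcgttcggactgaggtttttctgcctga
SPC25 promoter, chr2:168890381-168890680 (minus strand): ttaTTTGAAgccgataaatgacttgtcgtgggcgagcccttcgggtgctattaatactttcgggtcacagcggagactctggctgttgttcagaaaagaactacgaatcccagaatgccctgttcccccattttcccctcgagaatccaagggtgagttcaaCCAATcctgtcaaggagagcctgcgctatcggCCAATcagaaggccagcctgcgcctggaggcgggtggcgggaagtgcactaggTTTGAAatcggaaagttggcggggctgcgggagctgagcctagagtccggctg
CENPF promoter, chr1:214602945-214603244 (plus strand): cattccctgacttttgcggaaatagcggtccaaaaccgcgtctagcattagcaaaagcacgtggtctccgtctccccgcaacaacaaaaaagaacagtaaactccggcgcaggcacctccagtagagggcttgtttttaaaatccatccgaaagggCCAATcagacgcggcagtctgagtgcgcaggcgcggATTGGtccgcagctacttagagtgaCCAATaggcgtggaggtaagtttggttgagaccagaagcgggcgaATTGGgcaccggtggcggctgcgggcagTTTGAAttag
MAD2L1 promoter, chr4:120066799-120067098 (minus strand): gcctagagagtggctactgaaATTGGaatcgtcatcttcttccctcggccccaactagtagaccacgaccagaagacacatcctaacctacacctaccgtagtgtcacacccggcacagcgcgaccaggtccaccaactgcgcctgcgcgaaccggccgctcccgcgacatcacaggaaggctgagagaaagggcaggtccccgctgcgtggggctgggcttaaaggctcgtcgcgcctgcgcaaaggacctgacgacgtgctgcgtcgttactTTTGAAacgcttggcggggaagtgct
CDCA8 promoter, chr1:37692266-37692565 (plus strand): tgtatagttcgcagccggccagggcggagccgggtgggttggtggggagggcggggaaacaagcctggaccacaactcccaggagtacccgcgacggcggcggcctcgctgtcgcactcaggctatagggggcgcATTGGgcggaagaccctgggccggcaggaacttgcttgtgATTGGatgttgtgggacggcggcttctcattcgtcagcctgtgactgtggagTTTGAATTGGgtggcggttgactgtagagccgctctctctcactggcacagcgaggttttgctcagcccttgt
The other 4 belong to members whose log2 fold change with OmoMYC was above 0, the fifth of which, CENPM, had no entry. CENPT and MAD1L1 hold neither motif, CENPO holds a CHR 36 bases after its start, and PMF1 holds 3 CCAAT boxes.
CENPT promoter, chr16:67847644-67847943 (minus strand): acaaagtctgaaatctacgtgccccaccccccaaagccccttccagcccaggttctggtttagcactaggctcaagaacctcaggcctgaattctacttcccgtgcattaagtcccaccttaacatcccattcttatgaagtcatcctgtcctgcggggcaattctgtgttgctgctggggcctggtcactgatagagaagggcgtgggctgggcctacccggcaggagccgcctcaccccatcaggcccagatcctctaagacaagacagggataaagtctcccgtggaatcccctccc
CENPO promoter, chr2:24793175-24793474 (plus strand): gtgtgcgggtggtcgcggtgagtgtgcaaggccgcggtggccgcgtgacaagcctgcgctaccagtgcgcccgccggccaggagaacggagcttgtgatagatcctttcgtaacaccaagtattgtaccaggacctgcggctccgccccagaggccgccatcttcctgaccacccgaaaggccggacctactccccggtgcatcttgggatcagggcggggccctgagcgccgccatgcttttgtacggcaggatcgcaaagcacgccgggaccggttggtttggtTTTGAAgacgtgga
PMF1 promoter, chr1:156212757-156213056 (plus strand): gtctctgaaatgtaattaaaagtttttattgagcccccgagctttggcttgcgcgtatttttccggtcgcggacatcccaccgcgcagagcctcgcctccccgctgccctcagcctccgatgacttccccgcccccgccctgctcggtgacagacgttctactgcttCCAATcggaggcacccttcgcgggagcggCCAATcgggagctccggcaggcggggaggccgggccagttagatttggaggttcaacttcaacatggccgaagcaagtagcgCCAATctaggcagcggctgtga
MAD1L1 promoter, chr7:2232896-2233195 (minus strand): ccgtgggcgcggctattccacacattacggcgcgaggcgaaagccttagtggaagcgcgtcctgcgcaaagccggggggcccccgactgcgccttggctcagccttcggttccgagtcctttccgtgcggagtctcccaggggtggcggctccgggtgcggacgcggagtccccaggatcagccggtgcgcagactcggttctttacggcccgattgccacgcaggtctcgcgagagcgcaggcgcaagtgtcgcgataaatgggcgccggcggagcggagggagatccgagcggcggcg
A match is a description of these letters and not proof of a site, and promoter activity was not measured.

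Libraries held 28060817 to 38358128 counts in the OmoMYC experiment and 40861430 to 53451641 in the parental experiment, and members with a test held 58 to 61011 counts per library. Expression is given as CPM, counts per 1000000 counts of the library after TMM scaling. Reads of MYC, which the OmoMYC transgene shares, numbered 18, 16 and 20 in the EGFP libraries and 15040, 20295 and 16004 in the OmoMYC libraries. MYCN stood at 2408 to 2900 CPM with EGFP and 2182 to 2312 CPM with OmoMYC. Of 9 neuroblastoma markers, 7 were at 1 CPM or more in every library, and TH and DBH, enzymes of catecholamine synthesis, were at 1.41 CPM or less. The summed level of 5 fibroblast and mesenchymal markers was 32.6 to 36.8 CPM with EGFP, 39.5 to 46.7 CPM with OmoMYC and 6.70 to 8.30 CPM in parental cells. Of these markers, COL1A1 was at 18.1 to 25.0 CPM with EGFP and 28.2 to 36.5 CPM with OmoMYC, PRRX1 was lower with OmoMYC (11.1 to 13.5 CPM against 9.04 to 10.6 CPM), and the other 3 were at 1.04 CPM or less. Endothelial, blood and Schwann cell markers summed to 1.37 CPM or less. The part of other cell states in the results was not tested.

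A pair of members had far lower levels in the OmoMYC table than in the parental one. SKA1, a subunit of the microtubule-binding SKA complex, had 1, 0 and 9 counts with EGFP and 0, 0 and 6 with OmoMYC, did not pass the filter on low counts and was not tested. In parental cells the same identifier stood at 33.3 ± 0.483 CPM with DMSO (SD, n = 4). SPC25 had 4.11 ± 0.445 CPM with EGFP (n = 3) and 32.9 ± 1.19 CPM with DMSO, a ratio of 0.125. Its symbol was also listed under another identifier (ENSG00000262452.1) in the OmoMYC table, with 1 to 19 counts. The other 41 members had EGFP levels between 0.800 and 1.5 times their DMSO levels. KIFC1, a mitotic kinesin outside the members, was listed in the OmoMYC table but not tested there, and stood at 98.7 CPM with DMSO. Rows whose symbol was repeated numbered 538 in the OmoMYC table and 82 in the parental one. The reasons for the low counts of SKA1 and SPC25 and for the absence of KIFC1 from the tested genes were not tested.

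Induction of OmoMYC was accompanied by lower levels of most kinetochore, checkpoint and passenger genes. Of the 42 members tested, 34 were called lower, 1 was called higher and 7 were not called (edgeR's quasi-likelihood test, Benjamini-Hochberg FDR below 0.05 over 13803 genes). Among all tested genes, 25.7% were called lower and 27.3% higher. The median log2 fold change of the members was -0.58, a fall by 33.3%, beside 0.01 for all tested genes. Called or not, 37 members were below 0 (48.9% of all tested genes), and log2 fold changes ranged from -1.01 for CENPK to 0.94 for CENPT. Past a fitted fold of 1.5, 21 members were called lower, against 7.62% of all tested genes. The OmoMYC libraries did not overlap the EGFP libraries for 35 members that were lower (30.3% of all tested genes) and 2 that were higher, CENPT and PMF1 (32.0% of all tested genes). In these bulk libraries, fewer cells in G2 and mitosis and less RNA of each gene per cell cannot be told apart.

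Summed over the members, levels were 5217, 4847 and 4598 CPM in the EGFP libraries and 3316, 3367 and 3295 CPM in the OmoMYC libraries. The EGFP libraries differed among themselves more than the OmoMYC libraries did. The SD was larger relative to the mean with EGFP for 35 of the 42 tested members, with a median of 8.47% of the mean against 4.85% with OmoMYC. EGFP replicate 1 was the highest of its group for 30 members and the lowest for 11. Without EGFP replicate 1, 37 members were called lower, with a median of -0.57. In that fit 27.8% of all tested genes were called lower, against 25.7% with all libraries.

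**Figure D1:**
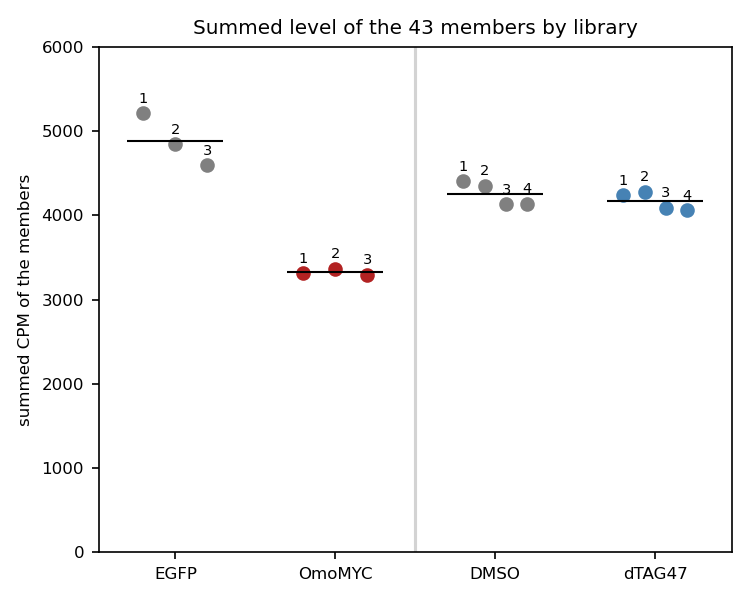
Summed CPM of the 43 members found, with 1 point per library, labelled by replicate number, and a line at the group mean. The EGFP libraries (4598 to 5217 CPM) lie above the OmoMYC libraries (3295 to 3367 CPM), whereas the DMSO and dTAG47 libraries overlap.

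CENP-A and its loading factors were called lower for all 4 members, with a median log2 fold change of -0.67. MIS18A, a subunit of the complex that marks centromeres for new CENP-A, was at 36.5, 32.4 and 28.8 CPM with EGFP and 18.8, 19.7 and 17.3 CPM with OmoMYC. The groups did not overlap, and MIS18A fell most of the 4 (log2 fold change -0.81 ± 0.10 SE, FDR = 1.22e-04). HJURP, the chaperone of CENP-A, was at 85.8, 89.5 and 87.7 CPM with EGFP and 62.8, 62.8 and 61.6 CPM with OmoMYC. It fell least of the 4 (-0.49 ± 0.07 SE, FDR = 1.75e-04), again without overlap. CENPA itself fell by 39.2% (log2 fold change -0.72, FDR = 6.53e-05), and OIP5, which binds MIS18A, by 34.8%. OIP5 shares 63.2% of its annotated exon bases with OIP5-AS1 and 29.3% with NUSAP1, both on the opposite strand. The sources used here do not say whether reads were counted by strand, so its value is uncertain.

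The constitutive centromere network was split. Of its 12 members, 9 were called lower, CENPT was called higher, and CENPM and CENPO were not called, with a median of -0.49. CENPK was at 37.1, 31.0 and 26.6 CPM with EGFP and 15.7, 17.1 and 14.1 CPM with OmoMYC, with no overlap. It fell most of all members (-1.01 ± 0.13 SE, FDR = 1.10e-04). CENPH, which forms a complex with CENPK, CENPI and CENPM, fell to about the same extent (-0.98 ± 0.08 SE), from 103 ± 8.72 to 52.1 ± 2.54 CPM (SD, n = 3 each). CENPI fell by 0.78 on the log2 scale. CENPM, the remaining subunit of that complex, was at 31.9, 36.7 and 34.2 CPM with EGFP and 34.3, 34.3 and 34.9 CPM with OmoMYC, within the spread of the EGFP libraries. Its log2 fold change was 0.01, with a 95% interval of -0.17 to 0.18.

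CENPO was also not called (0.07, 95% interval -0.10 to 0.23), while CENPQ, of the same subcomplex, fell by 0.96. CENPP, of that subcomplex too, was called lower (-0.25, FDR = 0.0244), but this call was lost when EGFP replicate 2, or either of OmoMYC replicates 2 and 3, was left out (FDR up to 0.0732). On the opposite strand, ADCY3 covers 27.0% of the exon bases of CENPO and IPPK covers 39.9% of those of CENPP, so both values are uncertain. CENPW, a histone-fold partner of CENPT, fell by 0.85, CENPC, which binds CENP-A nucleosomes, by 0.55, and CENPN and CENPL, which form a dimer, by 0.42 and 0.35. Listed as MLF1IP, CENPU fell from 112 ± 11.3 to 66 ± 3.74 CPM (SD, n = 3 each; -0.76, FDR = 7.06e-05).

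CENPT, a DNA-binding subunit that recruits the NDC80 complex, was at 26.2, 29.6 and 31.2 CPM with EGFP and 55.4, 53.6 and 57.7 CPM with OmoMYC. Every OmoMYC library was above every EGFP library, and CENPT rose by 91.8% (on the log2 scale 0.94 ± 0.09 SE, FDR = 1.31e-05). It was called higher in each of the 6 fits that left out 1 library. The gene (ENSG00000102901.8) lies on chromosome 16 from 67862060 to 67881714 on the minus strand of GRCh37, the sequence of hg19. TSNAXIP1, THAP11 and NUTF2 on the opposite strand cover 10.5%, 6.7% and 2.9% of its annotated exon bases. NUTF2 rose from 164 ± 8.28 to 248 ± 6.63 CPM (0.59) and TSNAXIP1 from 1.22 ± 0.295 to 2.90 ± 0.222 CPM (1.26; SD, n = 3 each), whereas THAP11 was not called (0.09). Their part in the counts of CENPT was not tested.

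**Figure D2:**
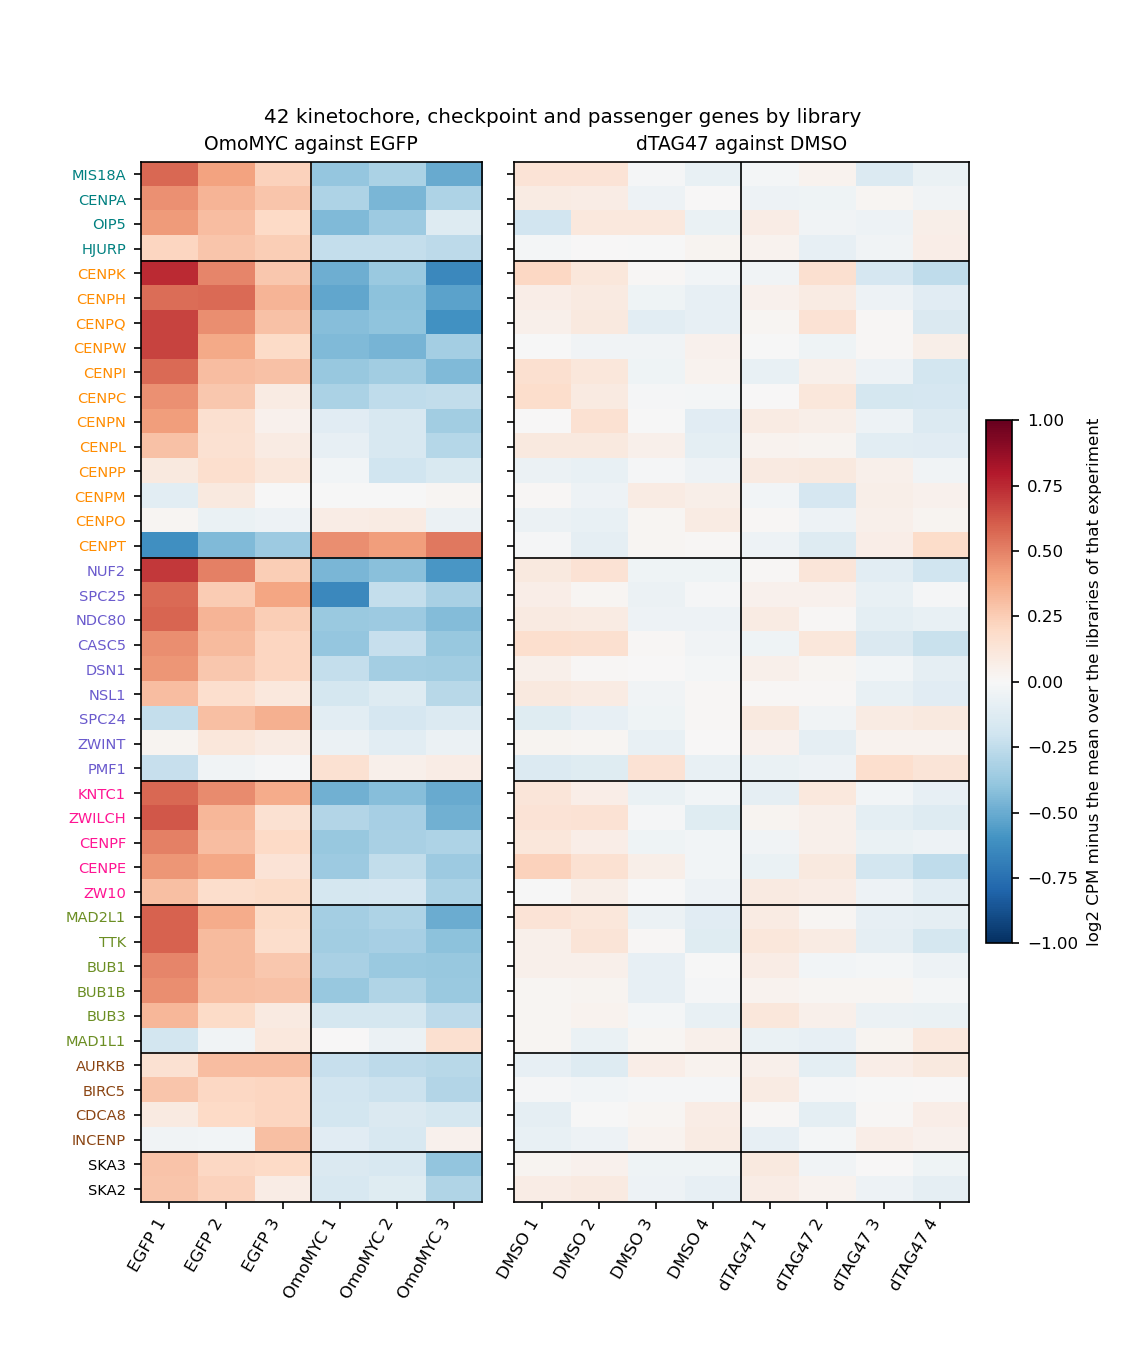
Log2 CPM of the 42 members tested in both experiments, minus each gene's mean over the libraries of that experiment. Columns are libraries, rows are genes ordered by functional group and, within it, by log2 fold change with OmoMYC, and horizontal lines separate the groups. Most rows turn from red (EGFP) to blue (OmoMYC), CENPT does the reverse, and the parental libraries are pale throughout.

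In the outer kinetochore, 6 of 9 members were called lower and none higher, with a median of -0.62. NUF2, the NDC80 partner that contacts the microtubule, was at 86.7, 75.2 and 62.9 CPM with EGFP and 38.7, 39.7 and 35.5 CPM with OmoMYC. It fell most in this group (-0.98 ± 0.11 SE, FDR = 6.08e-05), and its groups did not overlap. NDC80 fell by 0.78 and SPC25 by 0.80, the latter from only 58 to 145 counts per library. SPC24, the remaining NDC80 complex subunit, was at 84.8, 123 and 128 CPM with EGFP and 92.97, 88.8 and 90.8 CPM with OmoMYC. EGFP replicate 1 lay below all OmoMYC libraries, and SPC24 was not called (-0.30 ± 0.13 SE, FDR = 0.0747). Without EGFP replicate 1 it was called lower (-0.48, FDR = 2.40e-06). CASC5, also known as KNL1 and the scaffold that BUB1 and BUB3 bind, fell by 0.67.

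Subunits of the MIS12 complex, which joins the outer kinetochore to the centromere network, were unequal as well. DSN1 fell by 0.62 and NSL1 by 0.39, whereas PMF1 was not called (0.18, 95% interval -0.01 to 0.38), although its OmoMYC libraries were all above its EGFP libraries. PMF1 shares 23.3% of its exon bases with PMF1-BGLAP on the same strand, and its value is uncertain. ZWINT, which links CASC5 to the RZZ complex, was at 95.1, 101 and 98.6 CPM with EGFP and 89.6, 86.9 and 89.5 CPM with OmoMYC. These groups did not overlap either, yet ZWINT was not called (-0.15 ± 0.07 SE, FDR = 0.0806). Per kilobase of annotated exon, the NDC80 complex subunits were at 25.4 (NDC80), 22.3 (NUF2) and 39.4 (SPC24) CPM with EGFP and at 14.8, 11.3 and 32.0 CPM with OmoMYC. On that scale, SPC24 was the most abundant of these 3 subunits in both groups.

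All 5 members of the RZZ complex and fibrous corona, the outermost layer of an unattached kinetochore, were called lower, with a median of -0.68. KNTC1, the ROD subunit of RZZ, was at 225, 210.1 and 197 CPM with EGFP and 109, 113 and 107 CPM with OmoMYC. It fell by 0.95 ± 0.07 SE (FDR = 3.50e-06, the lowest of any member), without overlap. ZW10, another subunit of the same complex, was at 47.8, 43.8 and 44.3 CPM with EGFP and 34.2, 34.4 and 31.0 CPM with OmoMYC. It fell least of the 5 (-0.45 ± 0.08 SE, FDR = 0.00101), and ZWILCH, the remaining subunit, fell by 0.75. CENPF, a large coiled-coil protein of the corona, was at 1661, 1449 and 1340.0 CPM with EGFP and 899, 933 and 943 CPM with OmoMYC. The level of this gene per kilobase of exon, 119 CPM with EGFP, was higher than that of any other member, and it made up a large part of the summed CPM. CENPE, a kinesin that carries chromosomes towards the spindle equator, was at 206, 199 and 167 CPM with EGFP and 118, 128 and 118 CPM with OmoMYC. Neither gene's groups overlapped (CENPF -0.68 ± 0.08 SE, CENPE -0.65 ± 0.09 SE).

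Of the 6 spindle checkpoint genes, 5 were called lower, with a median of -0.71. MAD2L1, whose protein inhibits the anaphase-promoting complex, was at 208, 179 and 158 CPM with EGFP and 109.7, 112 and 98.3 CPM with OmoMYC. It fell most in this group (-0.77 ± 0.10 SE, FDR = 1.41e-04). The kinases TTK and BUB1 fell by 0.73 and 0.72, BUB1B, which encodes BUBR1, by 0.70, and BUB3, which holds both BUB proteins at kinetochores, by 0.41. MAD1L1, the kinetochore anchor of MAD2, was at 48.4, 53.7 and 59.2 CPM with EGFP and 55.1, 52.7 and 61.4 CPM with OmoMYC. Those groups overlapped, and its log2 fold change was 0.07 (95% interval -0.14 to 0.28). In GENCODE v44, another gene (ENSG00000286192) covers 43.2% of its exon bases on the same strand. The annotation used for counting is not given, so whether this overlap touches the counts of MAD1L1 is uncertain.

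In the chromosomal passenger complex, 3 of 4 members were called lower, with a median of -0.40 and none past a fold of 1.5. AURKB, the Aurora B kinase, was at 144, 161 and 160.5 CPM with EGFP and 111, 108 and 107 CPM with OmoMYC. It fell by 0.51 ± 0.07 SE (FDR = 1.82e-04), without overlap. BIRC5, encoding survivin, fell by 0.47 and CDCA8, encoding borealin, by 0.34. INCENP, the scaffold that activates Aurora B, was at 164, 165 and 207 CPM with EGFP and 156, 151 and 174 CPM with OmoMYC. Its groups overlapped and it was not called (-0.16 ± 0.10 SE, FDR = 0.191), but it was called lower without EGFP replicate 1 (-0.26, FDR = 0.0202).

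Both SKA genes that could be tested were called lower. SKA3 was at 61.02, 58.1 and 57.7 CPM with EGFP and 45.5, 44.9 and 38.3 CPM with OmoMYC, with no overlap (-0.46 ± 0.08 SE, FDR = 0.00124). SKA2 was at 245, 237 and 213 CPM with EGFP and 181, 185 and 164 CPM with OmoMYC, also without overlap (-0.39 ± 0.08 SE, FDR = 0.00190). Per kilobase of exon, SKA2 (71.6 CPM with EGFP) was above SKA3 (19.7 CPM).

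**Figure D3:**
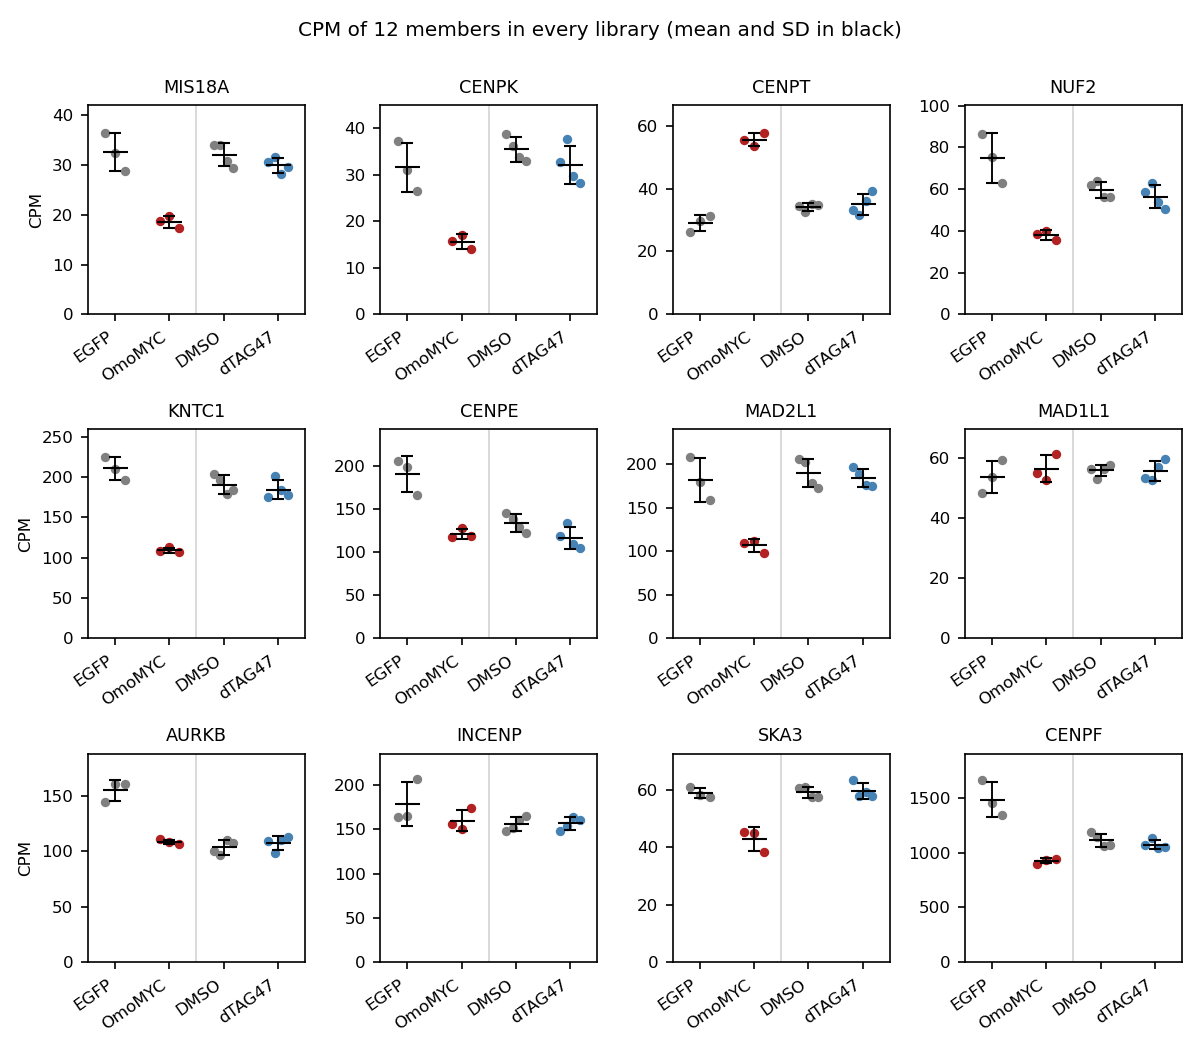
CPM of 12 members in every library, with 1 point per library, the mean as a black bar and the SD as an error bar; each vertical axis starts at 0. The OmoMYC points lie below the EGFP points for 9 genes, above them for CENPT, and overlap them for MAD1L1 and INCENP, while the DMSO and dTAG47 points overlap in every panel.

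A further list of 26 kinetochore and checkpoint genes outside the members gave 15 called lower and 1 called higher, with a median of -0.24, beside 25.7% and 27.3% of all tested genes. ITGB3BP, which encodes the centromere protein CENP-R, fell most, from a mean of 53.2 to 26.3 CPM (-1.01, FDR = 5.54e-05). It was followed by the centrosomal kinase NEK2, from 69.0 to 39.3 CPM (-0.81, FDR = 5.56e-05). CLASP2, a microtubule plus-end protein, rose from 120 to 161 CPM (0.43, FDR = 7.75e-04).

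Log2 fold changes with OmoMYC followed the GC content of the transcripts, among all genes and among the members. Across the 42 members, the GC content of the longest transcript correlated with the log2 fold change with Pearson's r = 0.76 and Spearman's rho = 0.71, and across 13499 tested genes with r = 0.32 and rho = 0.48. These correlations run across genes of the same libraries, and genes are not independent replicates. Below 40% GC, 51.7% of all tested genes and 12 of 12 members were called lower, with medians of -0.29 and -0.78. From 40% to 45% GC, 40.7% of all genes and 15 of 15 members were called lower, with medians of -0.18 and -0.68. From 45% to 50%, 25.3% and 4 of 5 were called lower, with medians of -0.01 and -0.49. From 50% to 55%, 13.4% and 2 of 5 were called lower, with medians of 0.14 and -0.30. At 55% or more, 6.5% of all genes and 1 of 5 members were called lower, with medians of 0.30 and 0.01. In every class of GC content, the members' median was below that of all genes. CENPT (59.0% GC), CENPM (61.4%) and MAD1L1 (62.6%) are among the members with the highest GC content, and CENPK (32.8%) has the lowest. INCENP (58.8%) and AURKB (55.6%), in the highest class too, had log2 fold changes of -0.16 and -0.51.

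**Figure D4:**
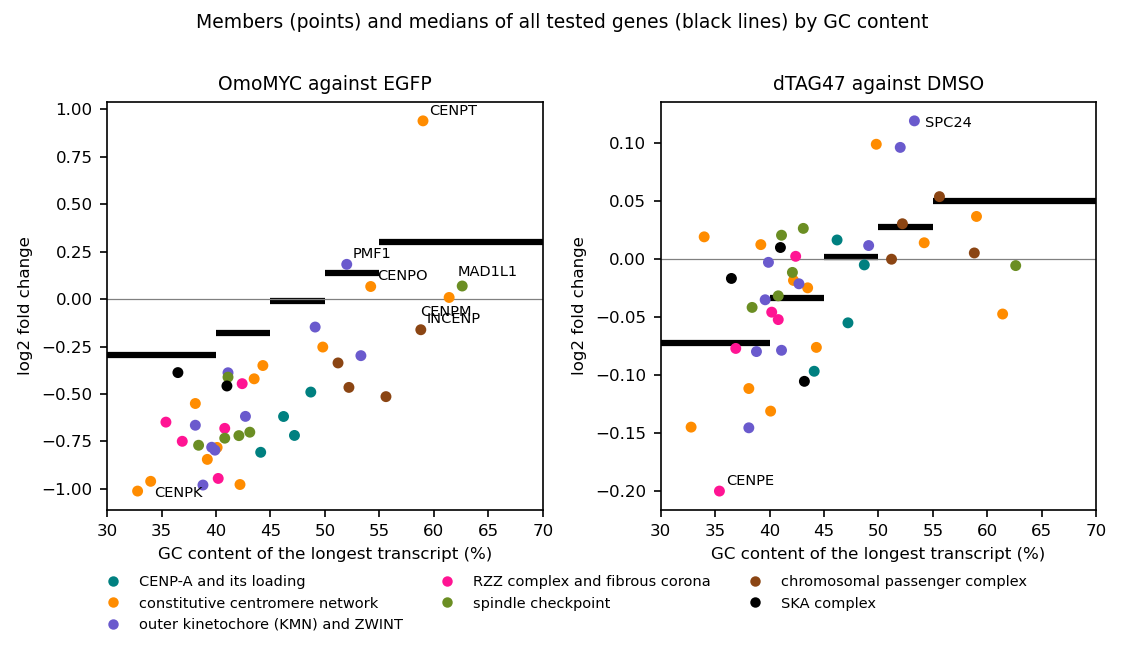
Log2 fold change against GC content of the longest transcript, with a point per member, coloured by functional group, and black lines at the median of all tested genes within 5 classes of GC content; the vertical scales of both panels differ. In the left panel, members and lines rise together from low to high GC, with most members below the lines and CENPT far above.

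When the trend with GC content, transcript length and gene span was removed from each library, 39 of the 42 members were called lower and CENPT was called higher, with a median of -0.47. In that fit 38.4% of all tested genes were called lower and 22.5% higher, with a median of -0.08. The 7 members without a call above divided in this fit. MAD1L1 (-0.58), INCENP (-0.57), SPC24 (-0.47), CENPM (-0.29), CENPO (-0.24) and ZWINT (-0.16) were called lower, and PMF1 (0.11, FDR = 0.153) was not called. All 4 passenger complex members were then called lower, with a median of -0.60, and AURKB stood at -0.70. SKA2 lost its call (-0.06, FDR = 0.240). KNTC1 changed little (-0.81), CENPK moved from -1.01 to -0.55, and CENPT from 0.94 to 0.57. The fall of most members thus held in both fits, whereas the order of the members and the values of those at either end of the GC range depended on this correction. Whether the trend arose in library preparation or in the cells was not tested.

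**Figure D5:**
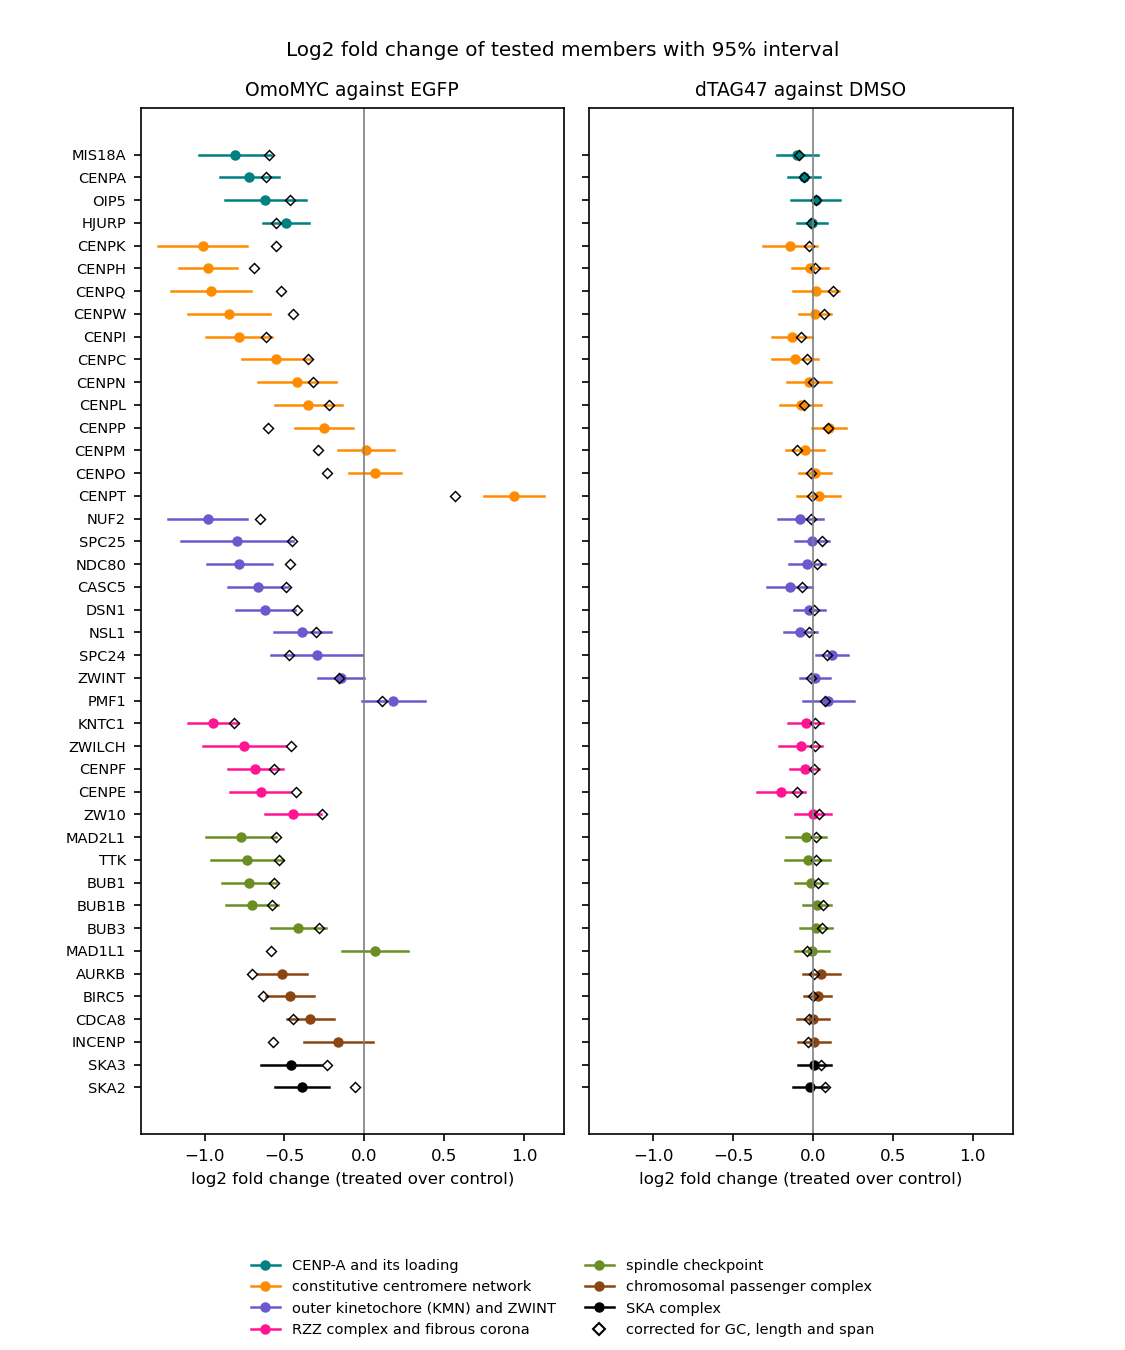
Log2 fold change of the 42 members tested in both experiments, as filled points with 95% intervals from edgeR, and after the correction for GC content, length and span, as open diamonds. With OmoMYC, most points lie between -0.3 and -1.0. The diamonds of MAD1L1, INCENP and CENPM lie further left than their points, and those of CENPK and SKA2 lie further right. With dTAG47, all points lie between -0.2 and 0.12.

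Members were also divided by the motifs of their promoter windows. Of the 14 tested members with both a CHR and a CCAAT box, 12 were called lower with OmoMYC, with a median of -0.58. Among all tested genes, 25.7% were called lower. With a CHR only, 4 of 5 were called lower (median -0.70), with a CCAAT box only 5 of 7 (median -0.51), and with neither 5 of 7 (median -0.39). CENPT was in the last of these classes, as were CENPE and CENPI, which fell by 0.65 and 0.78. Each gene had a single window, at its RefSeq gene start, and such a window can lie inside a gene whose transcripts start further upstream. Whether the windows, including those of CENPI and AURKB, are promoters used in these cells was not tested. The classes also differed in median GC content, at 42.97% (both motifs), 41.02% (CHR only), 36.88% (CCAAT box only) and 42.75% (neither). Log2 fold changes overlapped between all 4 classes, and no difference between them was tested.

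In parental cells, dTAG47 called no member in either direction. All 43 members were tested, including SKA1, and 26 were below 0 (50.8% of all tested genes) and 17 above, with a median log2 fold change of -0.02 and a range of -0.20 to 0.12. Among the 14470 genes tested, 0.0415% were called lower and 0.117% higher. At an unadjusted p below 0.05, 3 members were lower and 1 higher by edgeR (3.40% and 3.88% of all tested genes), and DESeq2 also called 0 members. No member had groups that did not overlap, against 1.47% of all tested genes lower and 1.87% higher. The 95% interval of the fold change lay within 1.5-fold for all 43 members and within 1.2-fold for 40. Changes of the size seen with OmoMYC for CENPK, KNTC1 or NUF2 thus lay outside the intervals of every member here, the lowest bound being -0.35.

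CENPE had the smallest p. Its DMSO libraries were at 146, 139, 129.8 and 123 CPM and its dTAG47 libraries at 119, 134, 109.7 and 105 CPM, and the groups overlapped (-0.20 ± 0.07 SE, FDR = 0.673). SPC24 was at 77.7, 79.7, 82.2 and 85.3 CPM in the DMSO libraries and 90.5, 82.8, 89.4 and 90.4 CPM in the dTAG47 libraries (0.12 ± 0.05 SE, FDR = 0.673). CENPI was at 43.1, 41.8, 37.4 and 39.5 CPM in the DMSO libraries and 36.7, 39.9, 37.2 and 34.0 CPM in the dTAG47 libraries (-0.13 ± 0.06 SE, FDR = 0.673). The groups overlapped for these genes too. CENPF averaged 1113 ± 60.1 CPM in the DMSO libraries and 1074 ± 40.6 CPM in the dTAG47 libraries (SD, n = 4 each; -0.05, 95% interval -0.14 to 0.04). The 4 passenger complex genes had log2 fold changes from 0.00 to 0.05, and the 6 checkpoint genes from -0.04 to 0.03.

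In the DMSO group of the parental experiment, replicates 1 and 2 stood apart from replicates 3 and 4, and in the dTAG47 group less clearly so, although neither labels nor methods name a batch. Over genes with 10 or more counts in a pair of libraries, the chi-square per degree of freedom between DMSO libraries was 2.64 (1 and 2) and 3.15 (3 and 4) within each of these pairs and 8.70 to 11.3 between them. With dTAG47, replicates 3 and 4 differed least (2.66), but replicate 1 differed more from replicate 2 (8.17) than from replicate 3 (5.68). Summed over the members, DMSO libraries 1 to 4 were at 4406, 4354, 4137 and 4141 CPM and dTAG47 libraries 1 to 4 at 4242, 4280, 4093 and 4066 CPM. Both libraries 1 and 2 were above both libraries 3 and 4 for 27 of 43 members with DMSO and for 23 with dTAG47, beside 31.6% and 27.6% of all tested genes. The reverse held for 28.8% and 29.9% of all tested genes. It also held for the summed passenger complex genes, at 501, 506, 533 and 541 CPM in DMSO libraries 1 to 4. In dTAG47 libraries 1 to 4 they were at 527, 504, 537 and 542 CPM. With a factor for this split, CENPE (-0.20, FDR = 0.00130) and CASC5 (-0.15, FDR = 0.0121) were called lower and SPC24 higher (0.12, FDR = 0.0286), while 2.90% of all tested genes were called lower and 2.58% higher. In replicates 3 and 4 alone, CENPE (-0.24), CASC5 (-0.17), CENPK (-0.21) and SKA1 (-0.16) were called lower and none higher (3.24% and 2.93% of all tested genes). In replicates 1 and 2 alone, no member was called (0.0207% of all tested genes lower and 0.0276% higher), and CENPE stood at -0.16 (FDR = 0.648). After the correction for GC content, length and span, with or without the factor, no member was called and CENPE stood at -0.10. Without the factor, 0.263% of all tested genes were then called lower and 0.553% higher, and with it 0.387% and 0.954%. CENPE was also called without dTAG47 replicate 2 (-0.27, FDR = 0.0401), when 0.221% of all tested genes were called lower.

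Members' log2 fold changes with dTAG47 followed GC content as well (r = 0.53, rho = 0.54, n = 43), as did those of 14201 tested genes (r = 0.31, rho = 0.46). Below 40% GC, the median was -0.06 for 12 members and -0.07 for all genes. At 55% or more it was 0.01 for 5 members and 0.05 for all genes. CENPE (35.4% GC) lay below the median of all genes in its class of GC content, and SPC24 (53.3% GC) lay above the median of its class (0.03).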

How the data were processed

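Total RNA of CHP-134 cells was depleted of ribosomal RNA and sequenced on a NovaSeq. Per the study's methods, the authors used Cutadapt for trimming, STAR for alignment to hg19 and FeatureCounts for counting, and deposited raw counts per gene, without normalization. Tool versions, annotation and strand setting are not given in the sources used here. All 14 count columns were mapped to samples by name, and 0 were left over. The study's methods call the samples biological replicates.

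Analyses used R 4.3.3 with edgeR 4.0.16, limma 3.58.1 and DESeq2 1.42.0. In each experiment, edgeR's filterByExpr, TMM scaling and robust quasi-likelihood test were applied to all genes, with Benjamini-Hochberg adjustment at an FDR of 0.05. CPM values use TMM-scaled library sizes. Gene positions, exon lengths and overlaps come from GENCODE v44 lifted to GRCh37, GC content from the longest transcript, and promoter windows from RefSeq on GRCh38.p14. Log2 CPM for the GC, length and span trend used a prior count of 2. The fits were tested on simulated data. Members and lists were chosen with earlier results of these data known.

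Every member could be named. Values per library were given in each functional group for the called member with the largest and the tested member with the smallest absolute log2 fold change with OmoMYC, for members called against the majority, for CENPE and CENPF, and for the 3 smallest p with dTAG47. The OmoMYC values of SPC24 were added after they were seen. Of the list of 26 other genes, the 2 largest called falls and every rise were named. Alternatives were DESeq2, limma-voom, other scaling, other filters, a replicate block, the GC, length and span correction, a factor for parental replicates 1 and 2 against 3 and 4, and leaving out each library. The correlations of same-numbered replicates after removing group means were 0.08, -0.07 and 0.29 in the OmoMYC experiment and 0.01, 0.11, 0.10 and 0.16 in the parental one, so the numbers were not taken to pair samples. Pairs of replicates differed by a chi-square of 2.64 or more per degree of freedom, and none was counted as a duplicate. Values were largest between EGFP libraries, at 7.94 to 42.1. They were 2.79 to 8.58 between OmoMYC libraries, 2.64 to 11.3 between DMSO libraries and 2.66 to 22.4 between dTAG47 libraries.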

Additional observations from a re-analysis of the deposited data

Results flagged for a closer look

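Within the parental experiment, groups of 4 libraries were searched for a single library that lay far from the other three, over all 43 members and both groups. In 4 of 86 groups the gap exceeded Dixon's 95% critical value, and chance flags about 1 in 20 such groups. SPC24 was at 82.8 CPM in dTAG47 replicate 2, against 89.4 to 90.5 CPM in the other dTAG47 libraries. ZWINT was at 94.9 CPM in the same library, against 103 to 104 CPM in the others. BIRC5 was at 135 CPM in dTAG47 replicate 1, against 127 to 128 CPM in the others, and at 125 CPM in DMSO replicate 2, against 127 CPM in each of the others. Groups of 3 libraries were not searched.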

How the results depend on the processing

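With OmoMYC, 33 to 39 members were called lower and 1 higher under every alternative run. Of all tested genes, 20.2% to 39.1% were called lower and 19.4% to 30.7% higher over these fits. DESeq2 gave 36 of 43 tested members lower (23.3% of all tested genes), and no filter gave 35 of 43 (20.2%). Limma-voom, other scaling and at least 10 counts in every library gave 34 of 42 (24.7% to 27.4%). Without single libraries, 33 to 37 members were called lower (20.4% to 29.9% of all tested genes), with medians from -0.68 to -0.54. Of the 34 calls lower, 33 held in all 6 such fits, the exception being CENPP. The correction for GC content, length and span gave 39 lower (38.4%) and, with the replicate block, 38 (39.1%), both with a median of -0.47. CENPM changed sign with DESeq2 (-0.01), RLE factors (-0.006), upper quartile factors (-0.0117), the GC correction (-0.29, and -0.29 with the block) and without EGFP replicate 1, EGFP replicate 3, OmoMYC replicate 2 or OmoMYC replicate 3 (range over all such fits -0.0575 to 0.0357). MAD1L1 changed sign with the GC correction (-0.58, and -0.58 with the block) and without EGFP replicate 1 or OmoMYC replicate 3 (range -0.0281 to 0.1129).

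The replicate block gave 35 members lower and 1 higher with OmoMYC. With dTAG47 the block gave 2 lower (CENPE, CASC5) and 1 higher (SPC24), as did the factor for replicates 1 and 2 against 3 and 4 (2 lower, 1 higher), against 0 without them. With the block, 2.50% of all tested genes were called lower and 2.11% higher. The numbers were not taken to pair the samples, by the check described. After removing group means, DMSO and dTAG47 libraries correlated at 0.01 to 0.25 within replicates 1 and 2 or within 3 and 4. Across that split the correlations were -0.23 to -0.02, and the main fit holds no term for it. With dTAG47, replicates 3 and 4 alone gave 4 lower (3.24% of all tested genes). The fits without single libraries gave 0 to 1 lower (0.0137% to 0.221%). CENPF changed sign with the GC correction (0.0042), also with the block (0.0043) or the factor (0.0043), and the members' median was then 0.0042 to 0.0043, from -0.0166. This last combination was chosen after seeing the data. The causes of these differences were not tested.

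With 3 or 4 libraries a group, the spread is known imprecisely, and the GC trend limits any statement on single members at either end of the GC range. In the main fit SKA1 could not be tested with OmoMYC, and SPC25 rests on few counts there.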

Other observations

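Other cell cycle genes moved with OmoMYC as follows, beside 25.7% of all tested genes called lower and 27.3% called higher. Of 20 listed genes of the spindle and the mitotic kinesins, all but KIFC1 were tested. Of these 19, 18 were called lower and 0 higher (0 higher also at an unadjusted p below 0.05, by edgeR). Their median log2 fold change was -0.61. Among 23 genes of replication origins and forks, 18 were called lower, with a median of -0.33, and all 23 were below 0. Among 20 cyclins and genes of mitotic entry, 11 were called lower and 1 higher, with a median of -0.28. With dTAG47 the medians of these lists were 0.01, 0.04 and 0.02, with 0 genes called (edgeR; at an unadjusted p below 0.05, 2 replication genes were higher, beside 3.88% of all tested genes).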
